A study of Mus musculus with 2 samples.

Results

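The 10 genes described here build or crosslink the elastic fibre: Eln, Fbn1, Fbln1, Fbln2, Fbln5, Efemp1, Efemp2, Ltbp2, Mfap4 and Lox. They were taken by name from the 32285 genes of the count matrix, and all 10 were found. RNA of single cells from mouse aorta was captured in droplets and sequenced. One sample is labelled MSC_ITGB3 and one HFD, both are ApoE-/- at 20 weeks of age, and the series describes mice fed a diet it calls HFD, with or without MSC_ITGB3. ApoE-/- mice lack apolipoprotein E, a ligand for lipoprotein clearance, and develop atherosclerotic plaques. The number of animals per sample is not stated in the labels. The matrix holds 2 libraries, told apart by the last digit of the barcode, and nothing in the labels or headers says which library is which sample. Both are therefore described side by side, MSC_ITGB3 is not compared with HFD, and with 1 library each there is no replicate check and no test.

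An elastic fibre has a core of crosslinked elastin inside a mantle of fibrillin microfibrils, and it gives the arterial wall its recoil. Eln encodes tropoelastin, the soluble precursor of the core. Fbn1 encodes fibrillin-1, the main microfibril protein, which is altered in Marfan syndrome, and Ltbp2 and Mfap4 encode proteins that bind microfibrils. Fbln5 and Efemp2 (fibulin-4) bind tropoelastin and are needed for fibre assembly, while Fbln1, Fbln2 and Efemp1 (fibulin-3) are related matrix glycoproteins. Lox encodes lysyl oxidase, which oxidises lysines so that elastin and collagen chains can crosslink. Most of the elastin of the aortic media is laid down early in life by smooth muscle cells.

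The levels separated the 10 genes by where they were highest. Eln, Fbln5 and Fbln2 led in endothelial-like or modulated smooth muscle-like barcodes, Ltbp2 and Lox in modulated smooth muscle-like barcodes, and Fbn1, Fbln1, Efemp1, Efemp2 and Mfap4 in fibroblast-like barcodes. As examples, 1 promoter window of an endothelial-high member (Fbln5) and 1 each of the fibroblast-high members Fbln1 and Efemp1 are printed, each the 250 bases before a RefSeq start on GRCm38.p6. A RefSeq window was at hand for 7 of the 10 members. The printed windows lie, in that order, at chr12:101819120-101819369 (minus strand), chr15:85205699-85205948 (plus strand) and chr11:28852955-28853204 (plus strand). Capitals mark matches on either strand to 5 motifs. The TATA box was searched as TATAAA, a signal for the place of transcription start. The GC box, bound by factors of the Sp family, was searched as GGGCGG. The AP-1 site, bound by Fos and Jun dimers, was searched as TGANTCA. The ETS site was searched as CAGGAAG, and the CArG box, bound by serum response factor, by its usual consensus.
Fbln5: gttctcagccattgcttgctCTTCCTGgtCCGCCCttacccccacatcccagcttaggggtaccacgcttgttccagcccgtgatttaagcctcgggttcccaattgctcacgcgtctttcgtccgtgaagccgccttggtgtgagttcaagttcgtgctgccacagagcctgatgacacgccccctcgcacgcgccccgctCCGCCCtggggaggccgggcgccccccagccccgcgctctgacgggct
Fbln1: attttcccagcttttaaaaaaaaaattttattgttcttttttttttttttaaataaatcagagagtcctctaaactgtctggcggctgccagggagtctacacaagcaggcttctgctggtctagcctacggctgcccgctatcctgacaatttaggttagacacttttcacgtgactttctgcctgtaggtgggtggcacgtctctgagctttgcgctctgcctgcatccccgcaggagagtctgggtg
Efemp1: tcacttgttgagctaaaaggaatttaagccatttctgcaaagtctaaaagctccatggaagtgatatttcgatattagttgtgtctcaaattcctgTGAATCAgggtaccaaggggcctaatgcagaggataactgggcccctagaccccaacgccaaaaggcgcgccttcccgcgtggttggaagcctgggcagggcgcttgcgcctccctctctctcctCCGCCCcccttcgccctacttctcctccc
Counted back from the start, the Fbln5 window held an ETS match at -230 and GC boxes at -221 and -48, and the Efemp1 window an AP-1 match at -154 and a GC box at -29. None of these letters is in the printed Fbln1 window. Fbln1 and Fbln5 each have 2 windows, and the matches depend on which is read: the other Fbln1 window holds a GC box at -11 and the other Fbln5 window holds no match. The bases just after the start were found near the 5' end of 1 GENCODE transcript each for the printed Fbln1 and Efemp1 windows. For both Fbln5 windows they were found in 0, so the Fbln5 positions are counted from a RefSeq start that this check did not find. Over 32851 promoter windows of the same source, 10.8% held the ETS letters, 32.7% a GC box, 6.75% the AP-1 letters, 12.4% the TATA letters and 1.47% a CArG box. On GRCm38 in GENCODE vM21, Eln lies at chr5:134702593-134747323, Fbn1 at chr2:125300594-125507993, Ltbp2 at chr12:84783212-84876532, Fbln5 at chr12:101746565-101819055, Fbln1 at chr15:85205949-85286535 and Fbln2 at chr6:91212455-91272540. Efemp1 lies at chr11:28853204-28926743, Mfap4 at chr11:61485431-61488900 and Efemp2 at chr19:5473954-5482517. The 3' ends of Mfap4 and Efemp2 overlap the opposite-strand genes Mapk7 and Mus81, and the 5' ends of Eln, Fbn1 and Ltbp2 overlap Gm30003, Gm9913 and D030025P21Rik on the opposite strand. The start of Lox, whose position is not given here, also overlaps an antisense gene. For these 6 genes reads there could be shared if strand was not used in counting.

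Barcodes with 3000 or more unique molecular identifiers (UMIs, each standing for 1 captured RNA molecule) and at most 20% mitochondrial UMIs were kept, which left 6332 in library 1 and 6540 in library 2, at median depths of 8746 and 6031 UMIs. The matrix held 110257209 UMIs in library 1 and 124266676 in library 2, and 17 barcode sequences were kept in both. Each barcode was thinned to 3000 UMIs and placed in a class by how many marker genes it showed. Endothelial-like barcodes numbered 925 in library 1 and 199 in library 2, modulated smooth muscle-like 539 and 956, fibroblast-like 1165 and 905, chondrocyte-like 88 and 433, and contractile smooth muscle-like 934 and 1366. T and NK cell-like barcodes numbered 158 in library 1 and 107 in library 2, and macrophage-like 342 and 314. The markers that define the wall of the aorta led their own classes, among them Myh11 in contractile, Cdh5 in endothelial and Clec3b in fibroblast-like barcodes. In the modulated class the summed level of the 10 fibroblast markers was 119% of that in low-count barcodes of library 1 and 101% in library 2, against 14.9% and 9.01% in the contractile class, so this class also holds fibroblast signal. Levels below are UMIs of a gene per 1000000 UMIs of the class (CPM), with exact Poisson intervals at 95% that cover counting error only. Low-count barcodes of 10 to 100 UMIs show the RNA free in the suspension.

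**Figure D1:**
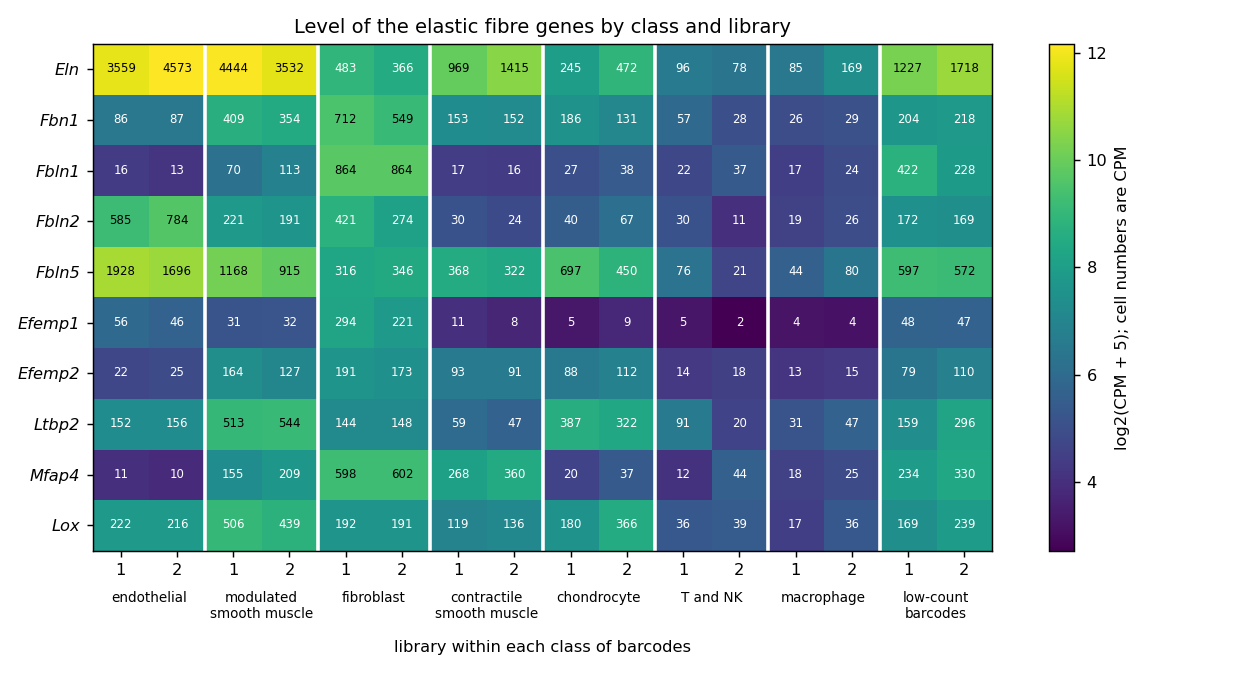
Level of the 10 genes (rows) in 7 classes of barcodes and in low-count barcodes (columns, library 1 then library 2), coloured by log2(CPM + 5) with the CPM printed in each field. Eln reaches 4573 CPM in endothelial-like barcodes of library 2, and Fbln1 864 CPM in fibroblast-like barcodes of both libraries.

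Eln, the elastin gene, was at 3559 CPM (interval 3528 to 3591) in endothelial-like barcodes of library 1 and 4573 CPM (4490 to 4658) in those of library 2. Modulated smooth muscle-like barcodes held 4444 CPM (4391 to 4497) and 3532 CPM (3487 to 3577). By summed level the order of these classes was opposite in the 2 libraries: endothelial-like over modulated was 0.801 (0.789 to 0.813) in library 1 and 1.295 (1.266 to 1.324) in library 2. The median barcode did not show this reversal. Of 3000 UMIs it held 5 of Eln in library 1 and 6 in library 2 in the endothelial-like class. In the modulated class it held 4 and 4. One modulated barcode held 5.41% of the Eln UMIs of that class in library 1. After thinning, the library 1 levels were 3491 CPM in endothelial-like and 3667 CPM in modulated barcodes. With a minimum of 5000 UMIs the library 2 order of summed levels turned, at 4688 CPM in endothelial-like and 4816 CPM in modulated barcodes. Contractile smooth muscle-like barcodes, the class with the fullest set of contractile genes, held only 969.2 CPM in library 1 and 1415 CPM in library 2. Fibroblast-like barcodes stood below them at 482.8 and 366.0 CPM, and chondrocyte-like barcodes were at 245.3 and 472.5 CPM. T and NK cell-like barcodes, which should lack elastin, showed 95.99 CPM in library 1 and 78.04 CPM in library 2, and macrophage-like barcodes 85.41 and 168.6 CPM. Eln in endothelial-like barcodes was thus 3.672-fold (3.598 to 3.749) that in contractile barcodes in library 1 and 3.232-fold (3.159 to 3.307) in library 2. After thinning to 3000 UMIs, 83.7% and 83.9% of endothelial-like barcodes and 87.9% and 87.4% of modulated barcodes held an Eln UMI, against 16.5% and 18.7% of T and NK cell-like barcodes. The signal was uneven among cells: the 10% of endothelial-like barcodes with most Eln held 46.4% of the thinned Eln UMIs in library 1 and 42.4% in library 2, and the same share of modulated barcodes held 57.7% and 53.2%.

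**Figure D2:**
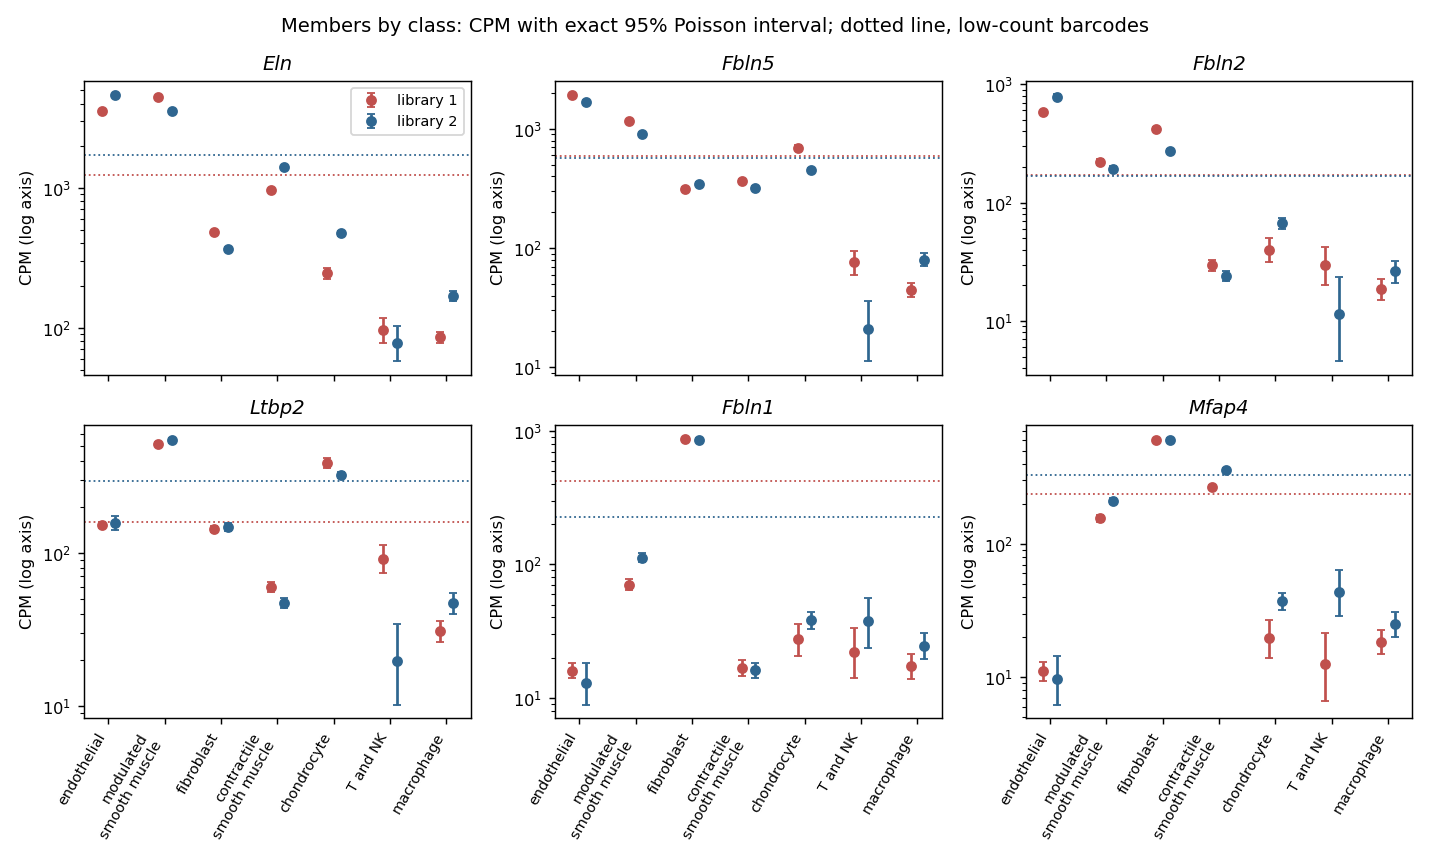
CPM (log axis) of 6 members in 7 classes, red for library 1 and blue for library 2, with exact 95% Poisson intervals and a dotted line at the level of low-count barcodes. Eln lies above its free RNA line in endothelial-like and modulated barcodes and below it in contractile ones, and Fbln1 lies above its line in fibroblast-like barcodes alone among the 7 classes.

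Of the assembly fibulins, Fbln5 followed Eln most closely. It was at 1928 CPM in endothelial-like barcodes of library 1 and 1696 CPM in those of library 2, then 1168 and 915.0 CPM in modulated and 696.9 and 450.3 CPM in chondrocyte-like barcodes. Contractile and fibroblast-like barcodes were close to each other, and their order differed between the libraries: fibroblast-like over contractile was 0.857 (0.822 to 0.894) in library 1 and 1.076 (1.027 to 1.128) in library 2. Fbln5 therefore had the same 3 leading classes in both libraries, each apart from the next beyond counting error. Efemp2, whose protein brings lysyl oxidase to tropoelastin, showed another order. Its level was 191.4 CPM in fibroblast-like barcodes of library 1 and 172.8 CPM in those of library 2, 163.5 and 126.6 CPM in modulated, and 93.18 and 91.06 CPM in contractile barcodes. Endothelial-like barcodes, so rich in Eln and Fbln5, had only 21.83 and 24.98 CPM of Efemp2, which is 27.8% and 22.6% of the free RNA level, and these values could not be told from the 14.4 and 17.89 CPM of T and NK cell-like barcodes (ratio 1.516, 0.905 to 2.742, in library 1 and 1.397, 0.729 to 2.941, in library 2).

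Fbln2, a fibulin of vessel walls and basement membranes, was highest in endothelial-like barcodes, at 584.7 CPM in library 1 and 784.4 CPM in library 2. Fibroblast-like barcodes came next at 421.0 and 274.3 CPM and modulated barcodes followed at 220.7 and 191.1 CPM. Contractile barcodes held 29.65 and 24.04 CPM, so that Fbln2 was 19.72-fold (17.7 to 22.04) and 32.63-fold (29.11 to 36.67) higher in the endothelial-like class. Fbln1 was far highest in fibroblast-like barcodes: 864.2 CPM in those of library 1 and 863.6 CPM in those of library 2, against 16.77 and 16.14 CPM in contractile barcodes. In the other main classes, the modulated one apart, it did not exceed 38.29 CPM, and endothelial-like, contractile and macrophage-like barcodes of library 1 could not be told apart. Modulated barcodes had 70.33 and 112.6 CPM of Fbln1, but in those with at most 3 fibroblast markers the level was 12.11 to 24.36 CPM in library 1 and 35.58 to 38.07 CPM in library 2. Efemp1 was at 293.9 CPM in fibroblast-like barcodes of library 1 and 220.7 CPM in library 2, followed by endothelial-like barcodes at 56.16 and 46.33 CPM, and contractile barcodes stood at 11.15 and 8.31 CPM.

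Among the microfibril genes, Fbn1 was highest in fibroblast-like barcodes, with 712.2 CPM in library 1 and 548.6 CPM in library 2. Modulated barcodes followed at 409.2 and 354.0 CPM, above contractile barcodes at 153.4 and 152.0 CPM and endothelial-like barcodes at 85.72 and 86.62 CPM. Mfap4 also led in fibroblast-like barcodes, at 597.9 and 602.5 CPM, but its second class was the contractile one, at 267.9 and 360.1 CPM, ahead of the modulated class at 155.4 and 208.6 CPM. It was the only member lower in modulated than in contractile barcodes, by a ratio of 0.580 (0.539 to 0.624) in library 1 and 0.579 (0.546 to 0.615) in library 2. Endothelial-like barcodes held 11.13 and 9.669 CPM of Mfap4, 4.75% and 2.93% of the free RNA level. Ltbp2 had the opposite slant: 513.4 CPM in modulated barcodes of library 1 and 543.5 CPM in library 2, against 59.38 and 47.11 CPM in contractile barcodes. Its second class was the chondrocyte-like one at 386.7 and 322.0 CPM, while endothelial-like (152.5 and 156.3 CPM) and fibroblast-like barcodes (143.8 and 147.7 CPM) did not differ beyond counting error.

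Lox, the crosslinking enzyme, was at 505.5 CPM in modulated barcodes of library 1 and 439.0 CPM in those of library 2. Chondrocyte-like barcodes held 180.4 CPM in library 1 but 366.2 CPM in library 2, where they were the second class. Endothelial-like (221.5 and 215.9 CPM) and fibroblast-like barcodes (192.5 and 190.8 CPM) were close, and contractile barcodes had 119.1 and 136.1 CPM.

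Set against contractile barcodes, the modulated class gained most of the list. In library 1, 8 of 10 members were 2-fold or more higher in modulated than in contractile barcodes and 0 were lower, where 5.45% of 6134 tested genes were higher and 4.5% lower. In library 2 the counts were 8 and 0 of 10, against 6.01% and 2.77% of 6344 genes. The median log2 ratio was 1.9 over the members and -0.042 over all tested genes in library 1, and 1.6 and 0.021 in library 2. The members that stayed under 2-fold were Efemp2 (1.755 and 1.39) and Mfap4, and the highest ratio was that of Ltbp2, 8.646 (7.959 to 9.403) in library 1 and 11.54 (10.63 to 12.54) in library 2. The summed level of the 10 members was 7681 and 6455 CPM in modulated barcodes and 2088 and 2571 CPM in contractile ones. The modulated class also held fibroblast markers, and barcodes with few of them are described below. In library 1 such barcodes with 4 and with 5 or more modulated markers held 24.36 and 12.11 CPM of Fbln1, and 21.79 and 17.38 CPM of Efemp1. Against 16.77 and 11.15 CPM in contractile barcodes, neither gene was 2-fold higher there. In library 2 both were, at 35.58 and 38.07 CPM against 16.14 CPM, and at 17.52 and 20.46 CPM against 8.31 CPM. The part of the fibroblast signal in the counts of 8 was not tested.

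Fibroblast-like barcodes had 7 members 2-fold or more higher and 1 lower than contractile barcodes in library 1, where 12.2% of 6357 genes were higher and 9.85% lower. In library 2 the counts were 5 higher and 1 lower, against 12.6% and 9.47% of 6429 genes. The member that was lower in both was Eln, at 0.498 (0.483 to 0.514) and 0.259 (0.249 to 0.269) of the contractile level. In library 1 that ratio sits at the edge of 2-fold, and Eln no longer counted as lower with a minimum of 1000 UMIs or with 1 marker more required. The 5 higher in both libraries were Fbn1, Fbln1, Fbln2, Efemp1 and Ltbp2, led by Fbln1 at 51.54-fold (44.72 to 59.7) and 53.51-fold. Endothelial-like barcodes had 5 members higher and 2 lower than contractile barcodes in each library, of 9 tested, against 16.5% and 10.9% of all tested genes in library 1 and 19.5% and 10.7% in library 2. The 5 were Eln, Fbln2, Fbln5, Efemp1 and Ltbp2, and the 2 were Efemp2 and Mfap4. Chondrocyte-like barcodes had 1 member higher and 2 lower than contractile barcodes in library 1 (13.1% and 13.3% of all tested genes), and 4 higher and 2 lower in library 2 (13.9% and 12.2%), of 9 tested.

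Endothelial-like, modulated and fibroblast-like barcodes also differed from each other. Modulated over fibroblast-like, 4 of 10 members were higher and 3 lower in each library, against 7.03% and 8.24% of all tested genes in library 1 and 7.22% and 7.02% in library 2. Eln had the ratios 9.205 and 9.649 here. Endothelial-like over fibroblast-like, 2 members were higher and 5 lower in library 1 (13.8% and 10.9% of all tested genes), and 3 and 5 in library 2 (16.4% and 10.4%). Endothelial-like over modulated, 1 member was higher and 6 were lower in each library, against 14.0% and 9.72% of all tested genes in library 1 and 13.4% and 9.75% in library 2. The member that was higher was Fbln2, at 2.649 and 4.104 of the modulated level.

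The difference between contractile and modulated barcodes was graded. Barcodes with 5 or more smooth muscle markers and at most 3 fibroblast markers were ordered by how many of the 8 modulated markers they showed (0, 1, 2, 3, 4, and 5 to 8), and none of those markers is a member. Such a count of markers is a range and not a cell type. In library 1 Eln stood at 496.2, 741.1, 1020, 1789, 5766 and 4491 CPM along these steps. In library 2 it stood at 709.6, 1027, 1616, 2270, 5784 and 3974 CPM. With every barcode thinned to the same 3000 UMIs, the last steps were level, at 5349 and 5355 CPM in library 1 and 3834 and 3834 CPM in library 2. Ltbp2 climbed further, from 20.46 CPM at no modulated marker to 715.1 CPM at 5 or more in library 1, and from 14.0 to 800.7 CPM in library 2. Lox ran from 66.5 to 649.3 CPM and from 100.9 to 543.3 CPM, and Fbln5 from 148.9 to 1304 CPM and from 194.5 to 1218 CPM. Fbn1, Efemp2 and Fbln2 were also higher at the last step than at the first. Mfap4 did the reverse past the middle: 154.0, 274.3, 276.1, 213.0, 141.4 and 76.36 CPM in library 1, and 302.8, 359.4, 374.2, 319.2, 194.9 and 114.2 CPM in library 2. The contractile marker Myh11, smooth muscle myosin heavy chain, was at 3347 CPM at the first step and 1149 CPM at the last in library 1, and at 3336 and 1172 CPM in library 2. The steps held 179, 341, 316, 211, 152 and 106 barcodes in library 1 and 143, 436, 552, 347, 199 and 173 in library 2.

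**Figure D3:**
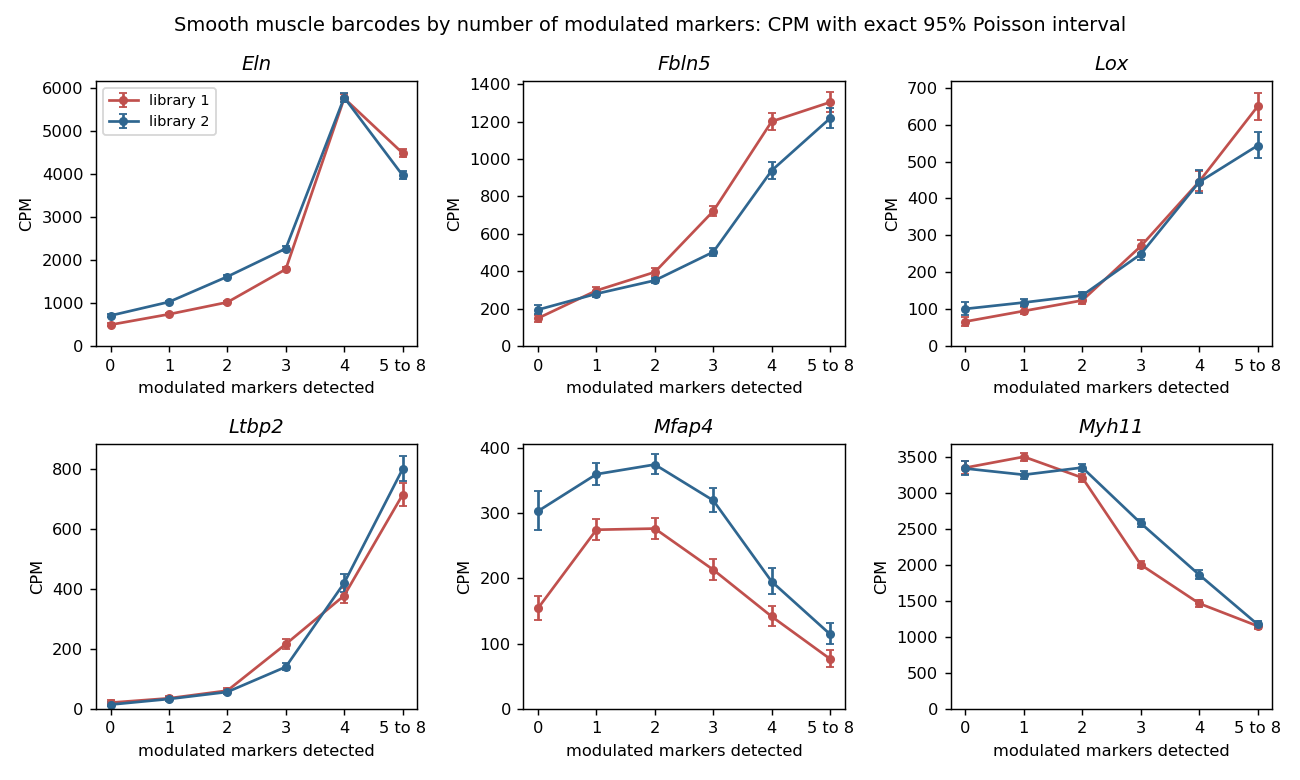
CPM of 5 members and of Myh11 in smooth muscle barcodes with few fibroblast markers, by the number of modulated markers detected, red for library 1 and blue for library 2, with exact 95% Poisson intervals. Eln, Fbln5, Lox and Ltbp2 are higher at 4 or more markers than at 0 in both libraries, whereas Mfap4 and Myh11 are lowest at 5 to 8.

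Endothelial-like barcodes were not uniform. Those led by arterial markers (Cytl1, Gkn3, Gja5, Bmx) held 4494 CPM of Eln in library 1 (488 barcodes) and 5369 CPM in library 2 (107 barcodes), against 1528 CPM and 3636 CPM in those led by venular markers (Ackr1, Selp, Vcam1, Sele; 206 and 48 barcodes). These 2 marker sets were chosen after the files were read. Endothelial-like barcodes with no single leading set (231 and 44) held 3617 and 3560 CPM of Eln, which in library 2 is close to the venular-marker level. The share of all genes that differ between these subsets was not computed, so nothing particular to the members is read from the split. Fbln5 followed the same split, at 2421 and 2110 CPM in arterial-marker and 1029 and 659.7 CPM in venular-marker barcodes, and so did Lox, at 277.2 and 280.9 CPM against 114.4 and 86.28 CPM. Ltbp2 was the other way round, at 102.7 and 106.1 CPM in arterial-marker barcodes against 259.5 and 278.6 CPM in venular-marker ones. The endothelial Eln level was also high where smooth muscle and fibroblast markers were few, a subset chosen after seeing the data. In the 476 and 99 endothelial-like barcodes with at most 2 smooth muscle and 2 fibroblast markers it was 3490 CPM in library 1 and 5181 CPM in library 2. Modulated markers were not limited in this subset. In the whole endothelial-like class the 10 smooth muscle markers summed to 10.8% and 9.26% of their free RNA level. The fibroblast markers summed to 34.9% and 31.1% of theirs, and the modulated markers to 86.6% and 61.0%.

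Fibroblast-like barcodes were not uniform either, and several members differed between the 2 largest marker subsets in the same direction in both libraries. The share of all genes that differ between these subsets was not computed, so nothing particular to the members is read from this. The subset led by Pi16 and Opcml markers (271 barcodes in library 1, 111 in library 2) held 1440 and 1641 CPM of Fbn1, 525.0 and 448.4 CPM of Efemp1 and 583.0 and 393.7 CPM of Fbln2. In the subset led by Inmt markers (457 and 445 barcodes) these genes were at 274.0 and 209.8 CPM, 206.3 and 168.6 CPM, and 294.0 and 189.9 CPM. Fbln1, Mfap4 and Fbln5 were the other way round: 476.8 and 342.6 CPM of Fbln1 in Pi16 Opcml barcodes against 1267 and 1043 CPM in Inmt barcodes, and 224.8 and 272.8 CPM of Mfap4 against 940.4 and 790.0 CPM. Fbln5 was at 212.8 and 269.2 CPM in Pi16 Opcml barcodes against 396.6 and 425.8 CPM in Inmt barcodes. Other members were closer: in library 1 Eln was at 436.9 CPM in Pi16 Opcml and 421.1 CPM in Inmt barcodes, Ltbp2 at 95.88 and 87.45 CPM, Lox at 137.7 and 144.5 CPM, and Efemp2 at 188.2 and 163.7 CPM. In library 2 Eln was at 248.3 CPM in Pi16 Opcml and 432.3 CPM in Inmt barcodes. A level of Fbln1 or Mfap4 in all fibroblast-like barcodes is therefore a mean over subsets that differ several-fold. Barcodes led by acute-phase markers (53 and 45) held more Efemp2 than any other fibroblast subset, at 300.3 and 249.3 CPM. Their Eln level was 813.5 CPM in library 1 and 293.8 CPM in library 2.

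**Figure D4:**
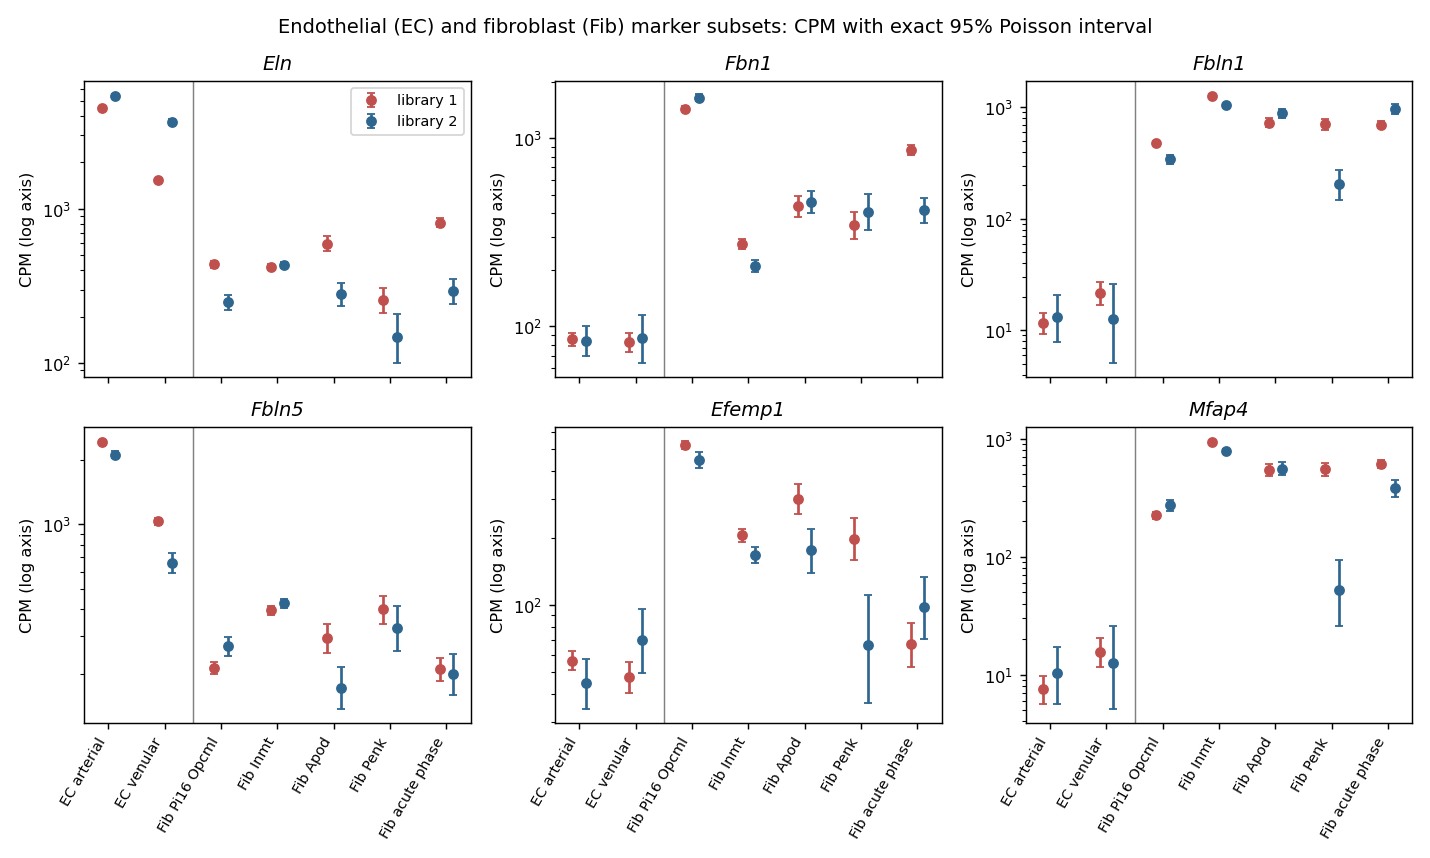
CPM (log axis) of 6 members in 2 endothelial (EC) and 5 fibroblast (Fib) marker subsets, red for library 1 and blue for library 2, with exact 95% Poisson intervals. Fbn1 and Efemp1 are highest in the Pi16 Opcml subset, while Fbln1 and Mfap4 are higher in the Inmt subset than in the Pi16 Opcml subset in both libraries.

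Much of the Ltbp2 and Lox signal lay outside the named classes. Barcodes that passed no gate (21.7% of library 1 and 21.8% of library 2) held 53.7% and 56.0% of all Ltbp2 UMIs and 39.0% and 41.2% of all Lox UMIs, beside 25.2% and 26.5% of all UMIs. Of these, 426 barcodes in library 1 and 429 in library 2 showed 4 or more modulated markers but fewer than 5 smooth muscle markers. They carried Ltbp2 at 893.9 and 1019 CPM, above the 513.4 and 543.5 CPM of the modulated class. Lox was at 539.3 and 587.5 CPM in them, Eln at 1697 and 2187 CPM and Fbln5 at 1086 and 1041 CPM. Mfap4, at 44.49 and 42.75 CPM, and Fbln1, at 52.02 and 60.51 CPM, were low in the same barcodes. The classes also differed in what share of a gene they held: endothelial-like barcodes, 14.6% of library 1 and 3.04% of library 2, held 38.9% and 12.6% of Eln UMIs, and fibroblast-like barcodes held 73.9% and 60.3% of Fbln1 UMIs.

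Single barcodes showed several members at once. Per 3000 UMIs the median number of members with a UMI was 4 and 4 in endothelial-like, 5 and 5 in modulated, 4 and 4 in fibroblast-like, 2 and 3 in contractile, and 0 and 0 in both T and NK cell-like and macrophage-like barcodes. The most any barcode showed was 10 of 10, in modulated barcodes of library 1 and in fibroblast-like barcodes of both libraries. Free RNA sets a floor to these values, since all members were measurable in low-count barcodes (Eln at 1227 CPM in library 1 and 1718 CPM in library 2). Taking the lowest member of a class as all free RNA gives an estimate of the Eln that free RNA adds. It is 1.31% and 1.1% of the Eln level in endothelial-like, and 5.03% and 8.6% in contractile barcodes. The same estimate is 32.5% and 40.9% in chondrocyte-like barcodes. It is no upper limit, since in T and NK cell-like barcodes, which should lack elastin, it reaches only 66.9% and 75.6% of the Eln level. In macrophage-like barcodes it reaches 59.0% and 77.4%. In fibroblast-like barcodes Eln is itself the lowest member, at 39.4% and 21.3% of its free RNA level. The estimate there is 100% and says nothing of the part of free RNA in the Eln level and ratios of that class. In modulated barcodes, where Fbln1 may also come with the fibroblast markers, the same sum gives 205.0 CPM of 4444 CPM and 849.0 CPM of 3532 CPM. In macrophage-like barcodes every member stood at 4.1% to 19.3% of its free RNA level in library 1 and 7.59% to 15.8% in library 2, and these levels are read as background.

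Between the libraries 0 or 1 members were past 1.5-fold in each of the 4 large wall classes, near the share of all tested genes, and nothing particular to the members is read from these counts. Library 1 and library 2 are not tied to a treatment, so their ratio says nothing of MSC_ITGB3. In endothelial-like barcodes 0 of 8 tested members were past 1.5-fold in either direction, against 3.66% of 6701 genes. In contractile barcodes the count was 0 of 8 (3.74% of 6093 genes), in modulated barcodes 1 of 10 (7.47% of 6268 genes) and in fibroblast-like barcodes 1 of 10 (2.73% of 6365 genes). In these 4 classes the count moved to between 0 and 2 under other settings. The 2 genes were Fbln1 in modulated barcodes, at 0.625 (0.554 to 0.704), and Fbln2 in fibroblast-like barcodes, at 1.535 (1.462 to 1.612). The Fbln1 call was lost after thinning each barcode to 3000 UMIs (131.7 CPM in library 1 and 167.0 CPM in library 2), where Efemp2 was past 1.5-fold instead at 1.55, and with a minimum of 1000 UMIs. The Fbln2 call was lost at minimums of 1000 and 5000 UMIs. The fibroblast markers of the modulated class summed to 9405 CPM in library 1 and 9119 CPM in library 2, and their part in the Fbln1 ratio was not tested. Eln differed by less than 1.5-fold in each of the 4 classes but not in 1 direction: 0.778 in endothelial-like, 1.258 in modulated, 1.319 in fibroblast-like and 0.685 in contractile barcodes. It passed 1.5-fold with 1 marker more required in contractile (0.641) and fibroblast-like barcodes (1.512), and with free RNA subtracted in fibroblast-like barcodes (1.853). In chondrocyte-like barcodes, 88 against 433, 5 of 9 members were past 1.5-fold (13.7% of 6165 genes), among them Eln at 0.519 (0.470 to 0.573) and Lox at 0.493 (0.439 to 0.552). In T and NK cell-like barcodes 6 of 8 were past 1.5-fold (22.9% of 6180 genes) and in macrophage-like barcodes 4 of 8 (10.1% of 5863 genes), at levels below free RNA.

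**Figure D5:**
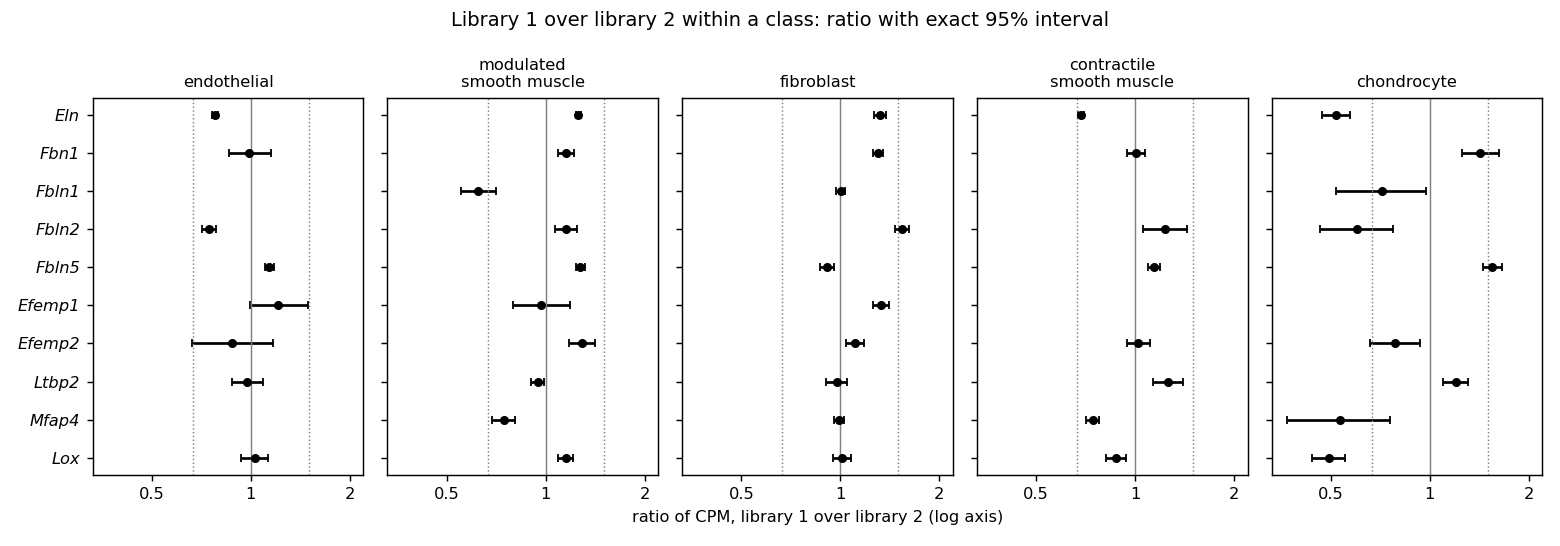
Ratio of CPM in library 1 over library 2 (log axis) for each member with a mean of 20 CPM or more, by class, with exact 95% intervals, a solid line at 1 and dotted lines at 1.5-fold. In the first 4 panels the members lie within 1.5-fold except Fbln1 in modulated (0.625) and Fbln2 in fibroblast-like barcodes (1.535).

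The genes whose levels ran most like each member over the 14 sums (7 classes by 2 libraries) were named from 6337 genes by Pearson's r of log2(CPM + 5), a description over sums that share libraries and free RNA. For Eln they were Shc1, Tm4sf1 and Col4a1 (r = 0.965, 0.947 and 0.937), the last a collagen chain of basement membranes. For Fbln5 they included Pxdn and Mecom. For Fbln2 they were Lamb1, Mdk and Vegfc, and for Ltbp2 Fn1 (fibronectin), Unc5b and Tln2. Fbn1 ran with Nbl1, C1ra and Loxl2, Fbln1 with Entpd2, Dio2 and Scara5, Efemp1 with Fmo1, Slc4a4 and Angptl4, and Efemp2 with Sdc2, Gpx8 and Prrx1. Mfap4 ran with Rarres2, Abcc9 and Slit3, and Lox with Bgn (biglycan), Ltbp3 and Kazald1. Within the list the closest pairs were Fbn1 with Efemp2 (0.936) and Eln with Fbln5 (0.892), and Eln with Fbln1 gave -0.016.

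Of 24 other elastic fibre and microfibril genes, 19 reached 20 CPM in any of the 7 main classes and 17 of these had the same leading class in both libraries. The share of all genes led by each class was not computed, so counts by leading class, here and for the enzymes below, are descriptive only. Fibroblast-like barcodes led for 9, among them Mfap5, a microfibril glycoprotein gene, at 1842 CPM in library 1 and 1309 CPM in library 2, the tenascin gene Tnxb at 580.8 and 401.1 CPM, and the lysyl oxidase relative Loxl1 at 445.0 and 419.2 CPM. Endothelial-like barcodes led for 3, of which Ltbp4 was at 1138 and 1140 CPM, against 255.3 and 293.2 CPM in contractile barcodes. Contractile barcodes led for 2, Ltbp1 (477.6 and 597.3 CPM) and Thsd4 (421.0 and 398.9 CPM), a gene whose product binds fibrillin microfibrils. Fibroblast-like over contractile, 10 of 18 tested were 2-fold or more higher and 1 lower in library 1 (12.2% and 9.85% of all tested genes), and 9 and 2 in library 2 (12.6% and 9.47%). Modulated over contractile, 4 of 14 were higher and 1 lower in library 1 (5.45% and 4.5% of all tested genes), and 4 of 16 and 1 in library 2 (6.01% and 2.77%). Of 9 elastin-degrading enzymes, 8 were in the matrix and 6 reached 20 CPM in any of the 7 main classes. Neutrophil-like barcodes (65 in library 1 and 15 in library 2), which have Mmp9 among their gate markers, are not among these classes. Macrophage-like barcodes led for 3: Mmp12, macrophage elastase, at 974.9 and 535.4 CPM, and the cathepsins Ctss, at 4188 and 3237 CPM, and Ctsl, at 6098 and 3484 CPM. Ctsk, cathepsin K, led in fibroblast-like barcodes at 282.9 and 303.1 CPM.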

How the data were processed

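The 2 samples of mouse aorta were captured with a Chromium kit for 3' ends (v3), as the labels' protocols say. The authors deposited raw UMI counts as 1 unfiltered matrix, without scaling. Its header names Cell Ranger 6.0.1 as the writer, so the counts are unnormalized per the file headers. Per the submitters' processing notes, bcl2fastq, Seurat and mm10 were used. The gene models behind the counts are not stated.

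Counts were read with Python 3.11.15, numpy 2.4.6, scipy 1.17.1 and pandas 2.3.3. Barcodes with 3000 or more UMIs and at most 20% mitochondrial UMIs were kept. Each was thinned to 3000 UMIs and gated by the number of detected markers: 5 of 10 endothelial, 5 of 10 macrophage, 3 of 9 T and NK, 4 of 12 chondrocyte, 6 of 10 fibroblast with at most 3 smooth muscle markers, 7 of 10 smooth muscle with at most 3 fibroblast markers (contractile), and 4 of 8 modulated with 5 or more smooth muscle markers and no limit on fibroblast markers. The gate sizes were set after the files were read. Barcodes labelled as passing more than 1 gate (565 in library 1, 744 in library 2) were left out. That label was not given to modulated barcodes that also passed the fibroblast or smooth muscle gate, which could stay in the modulated class. No doublet caller was run, and doublets remain possible, also of fibroblasts with smooth muscle cells in the modulated class. UMIs were summed per class and library, and genes with a mean of 20 CPM or more were compared, at 2-fold between classes and 1.5-fold between libraries. With 1 library per sample no test was made. Intervals are exact at 95% (Poisson for levels, conditional binomial for ratios) and cover counting error only. The scripts were tested on simulated data. The 10 members, the marker lists and the 2 other gene lists were chosen with earlier results of these data known, and all 10 members are named. Other genes are named from those 2 lists by size of ratio or level, and as the 3 genes most like each member by Pearson correlation, of which 1 is not reported here. The alternatives were other UMI minimums, another mitochondrial limit, 1 marker more, subtraction of free RNA, median-centred scaling and thinned counts.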

Additional observations from a re-analysis of the deposited data

Results flagged for a closer look

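For 3 members the ratio of library 1 over library 2 was past 1.5-fold in opposite directions in different classes, with intervals apart from 1, and the difference between classes was not tested. The share of all genes meeting this rule was not computed, so nothing particular to the members is read from it. Past 1.5-fold in either direction were 22.9% of tested genes in T and NK cell-like, 13.7% in chondrocyte-like and 10.1% in macrophage-like barcodes. Fbln2 was at 1.535 in fibroblast-like and 2.615 in T and NK cell-like barcodes but 0.601 in chondrocyte-like barcodes. Fbln5 was at 1.548 in chondrocyte-like and 3.588 in T and NK cell-like barcodes but 0.556 in macrophage-like barcodes. Ltbp2 was at 4.674 in T and NK cell-like and 0.658 in macrophage-like barcodes. The T and NK cell-like values rest on few molecules: 1 barcode held 44 of the 95 Ltbp2 UMIs of library 1, and the level without it was 50.62 CPM, against 91.19 CPM with it. The T and NK cell-like and macrophage-like levels of these genes lie below the free RNA level in both libraries.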

How the results depend on the processing

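Levels depended on the settings: with 10% free RNA subtracted, 106 levels in the 7 main classes were counted as moved and 34 as the same. Among levels of 50 CPM or more in 5 wall classes, 7 moved by over 1.5 times in some alternative, among them Fbln1 in modulated barcodes of library 1 (70.33 CPM, against 38.82 CPM at a minimum of 5000 UMIs, 31.23 CPM with 10% free RNA subtracted and 131.7 CPM after thinning) and Eln in fibroblast-like barcodes of library 2 (366.0 CPM, against 215.4 CPM with free RNA subtracted). The members lower in fibroblast-like than contractile barcodes of library 1 numbered 1, but 0 at a minimum of 1000 UMIs and 0 with 1 marker more. Counts of members past 1.5-fold between libraries were small and moved. In modulated barcodes 1 became 0 (1000 UMIs) or 2 (1 marker more). In contractile barcodes 0 became 1 (1000 UMIs, 5000 UMIs, 1 marker more, and free RNA subtracted). In endothelial-like barcodes 0 became 2 (1000 UMIs) or 1 (1 marker more). In fibroblast-like barcodes 1 became 0 (1000 and 5000 UMIs) or 2 (1 marker more, and free RNA subtracted). In chondrocyte-like barcodes 5 became 3 (5000 UMIs) or 2 (thinned). In T and NK cell-like barcodes 6 became 2 (free RNA subtracted), 3 (thinned) or 1 (a 50 CPM filter). In macrophage-like barcodes 4 became 7 (1000 UMIs), 1 (5000 UMIs), 0 (free RNA subtracted) or 2 (the 50 CPM filter). The filter of 50 CPM was chosen after seeing the data. The cause of these moves was not tested, save that a higher filter leaves fewer genes. In T and NK cell-like barcodes the log2 ratio of library 1 over library 2 changed sign for Fbn1 (-0.89 at 5000 UMIs, -0.90 at a mitochondrial limit of 10%), Fbln1 (0.22 at 5000 UMIs), Fbln5 (-1.49 at 5000 UMIs, -0.27 at the 10% limit) and Ltbp2 (-2.17 at 5000 UMIs). Median-centred scaling left all 11 counts where they were. No paired analysis was possible because each sample has 1 library and neither library is tied to a sample.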
